A study of Mus musculus with 4 samples.

Results

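Follicle infundibulum keratinocytes line the mouth of the hair follicle, where the hair shaft leaves the skin, and they were examined here in single-cell RNA libraries of regenerating mouse digits. The cells were chosen by gene levels. A barcode was taken when it held at least 1 UMI (unique molecular identifier, a count of captured RNA molecules) of 4 or more of the 6 genes Krt79, Defb6, Cst6, Gata6, Klk10 and Nebl, at least 3 UMIs of Krt79, and UMIs of fewer than 4 of the 6 sebaceous genes Far2, Awat1, Cidea, Soat1, Acoxl and Fa2h. This gave 2589 of 93602 kept cells, with 849 in the SAR131675 diet library, 669 in diet control, 404 in LNR and 667 in LNR control. Unless stated otherwise, values for the 4 libraries follow in that order. The levels of the 6 selection genes are a description, and no test was made on them.

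The study asked what reduced lymphatic function does to regeneration after amputation of the digit tip, the terminal phalanx P3, which was cut on hind digits 2 and 4. Mice were female C57BL/6 of 6 to 8 weeks, and each library pooled hind digits 2 to 4 of 10 mice, so that a pool could also hold digits without an amputation. The SAR131675 diet group ate chow with 30 mg/kg of SAR131675, an inhibitor of the lymphatic receptor VEGFR3, for 8 days per the series design, while the study's methods start it before the amputation and keep it on, and the diet control group ate matched chow. The LNR group had lymph node removal, and the LNR control is labelled as having no treatment and described in the series design as sham. Per the study the nodes were taken from 1 side and the opposite limb served as the sham side, so that both pools may hold digits of the same mice. Each condition was 1 library and its own labelled batch, so that condition and batch cannot be told apart. More than 1 day of harvest is given for the diet experiment, and none is used here.

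The infundibulum is the funnel of epithelium between the epidermis and the opening of the sebaceous gland. Its cells differentiate, cornify and shed much as epidermis does, and Krt79-positive cells of the upper follicle are known for lining the follicle canal and the sebaceous duct. Gata6 encodes a transcription factor of this duct and junctional zone, Cst6 an inhibitor of cathepsins and legumain, Defb6 a secreted beta-defensin, Klk10 a member of the kallikrein family of secreted proteases, and Nebl a nebulin-related protein that binds actin.

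Promoters of the selection genes are shown because these genes define the cells and Gata6, 1 of them, encodes a factor with a known DNA motif. RefSeq windows of 250 bases before the start, on build GRCm38.p6, were matched for 4 of the 6 genes (Krt79, Defb6, Klk10 and Nebl). Cst6 and Gata6 had no entry. Capitals mark a match to AGATAA or TGATAA on either strand. The Krt79 window is chr15:101940325-101940574 on the minus strand, the Defb6 window chr8:19225228-19225477 on the plus strand, and the first of 4 Nebl windows chr2:17670166-17670415 on the minus strand.
Krt79: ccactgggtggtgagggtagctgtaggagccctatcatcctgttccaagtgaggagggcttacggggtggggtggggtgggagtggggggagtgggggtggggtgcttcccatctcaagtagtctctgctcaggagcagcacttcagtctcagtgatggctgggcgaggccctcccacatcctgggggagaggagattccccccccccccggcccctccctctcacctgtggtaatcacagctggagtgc
Defb6: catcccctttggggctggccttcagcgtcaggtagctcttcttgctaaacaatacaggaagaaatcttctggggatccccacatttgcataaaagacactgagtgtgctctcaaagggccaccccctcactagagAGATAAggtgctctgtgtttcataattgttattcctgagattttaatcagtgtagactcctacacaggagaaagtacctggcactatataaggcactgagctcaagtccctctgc
Nebl: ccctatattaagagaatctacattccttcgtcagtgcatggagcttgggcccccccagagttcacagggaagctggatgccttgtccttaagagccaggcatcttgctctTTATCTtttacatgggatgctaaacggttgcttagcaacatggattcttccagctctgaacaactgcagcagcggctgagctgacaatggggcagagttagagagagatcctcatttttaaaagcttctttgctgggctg
The match in Defb6 began 115 bases before the start and that in Nebl, on the opposite strand, 140 bases before it. The second Nebl window held AGATAA 34 bases before its start, and the remaining Nebl windows held none. The Krt79 and Klk10 windows held neither of these sequences. Other forms of the motif were not searched, so that this does not show that a window lacks the motif. Of all 32851 promoter entries of this length, 5452 (16.6%) held at least 1 match. With only the first entry of each gene, 4591 of 27025 (17.0%) did. Of the 20 genes that met the rule for naming as higher in infundibulum cells, 15 had an entry. In their first entries 3 of the 15 (20%), Clca3a2, Calhm5 and Krt77, held a match, near the share over all genes.

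Depth and cell mixtures differed between libraries. The infundibulum cells had median depths of 12395, 12178, 10125 and 11148 UMIs, and all kept cells 11316, 10712, 5725 and 5851. In LNR control, 158 of the 667 infundibulum cells (23.7%) held UMIs of markers of 4 or more of 9 other cell classes, here called mixed cells, against 23 (2.71%), 9 (1.35%) and 11 (2.72%) in the other libraries. The 9 classes were fibroblast, immune, endothelial, melanocyte, Schwann, hair shaft, inner root sheath, sweat gland and sebaceous. Of the LNR control sebaceous cells 146 (29.1%) were mixed, and of its spinous cells, which are chosen by Krt1 and Krt10, 26 (1.19%). Sebaceous cells held 1 of the 9 classes by definition, so that these 2 shares rest on unlike thresholds. Over all kept cells 3.12%, 1.29%, 1.22% and 3.05% were mixed. On the scale of CPM (the UMIs of a gene over all UMIs of a cell group in a library, times 1e6), the mixed LNR control cells held 1248 CPM of Krt79 and 2630 of Defb6, and the other infundibulum cells of that library 7157 and 19523. Counts over all genes and the infundibulum share of kept cells are given with and without mixed cells where they involve LNR control, while gene levels, shares of cells with a UMI, gene list counts, ratios of single genes and correlations include them unless stated. Without mixed cells LNR control held 134 CPM of Gata6, 147 of Nebl and 427 of Klk10. Kept barcodes shared within a pair of libraries numbered 210 in the diet pair and 101 in the LNR pair.

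Markers of other classes were summed in the infundibulum cells. Fibroblast markers summed to 360.1, 213, 1273 and 2031 CPM in the infundibulum cells and to 934, 433, 1264 and 1222 in spinous cells. Immune markers summed to 32.3, 64.7, 174 and 240.1, endothelial markers to 3.17, 16.2, 18.3 and 37.4 and nail-type markers to 36.9, 10.8, 7.08 and 161. Inner root sheath markers summed to 39.6, 49.1, 138 and 139, and to 39.8, 30.6, 16.4 and 24.1 in spinous cells, and sebaceous markers to 25.2, 45.4, 17.5 and 67.9 against 11.4, 8.20, 9.31 and 9.72. Sweat gland markers summed to 21.9, 16.4, 20.0 and 24.9 against 12.0, 7.58, 10.9 and 14.5, and were higher than in spinous cells in each library. In outer follicle cells sweat gland markers summed to 13.9, 16.0, 23.2 and 14.3, in LNR above the infundibulum cells. Outer follicle cells also held 210, 31.0, 33.8 and 53.5 of inner root sheath and 22.1, 21.2, 22.0 and 18.4 of sebaceous markers. Melanocyte markers summed to under 1 CPM in every library, with Tyrp1 at 0 in diet control, LNR and LNR control, and Sox10, which defines Schwann cells, was at 0 in diet control and LNR. Without the cells of any group that held 2 or more UMIs of fibroblast, immune, endothelial, melanocyte or Schwann cell markers, 1363 genes were higher and 1205 lower than in spinous cells, beside 1211 and 930 over all cells.

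The selection genes were high in every library. Krt79 (ENSMUSG00000061397), a type II keratin, was at 6935, 7502, 6551 and 5274 CPM, and the infundibulum cells held 83.1%, 84.5%, 56.9% and 59.7% of all Krt79 UMIs of their library. Sebaceous cells also held Krt79, at 1243, 1419.5, 2575 and 2176. Defb6 (ENSMUSG00000050756) was at 7205, 7109.7, 18874 and 14142, and 84.8 to 91.2% of its UMIs lay in these cells. Cst6 was at 26600.3, 32277, 46840.5 and 38351. Defb6 and Cst6 were higher in both libraries of the LNR pair than in both diet libraries, without overlap. The reverse held for Gata6, at 223, 249, 135 and 102, and for Nebl, at 764, 809, 131 and 113. The pairs also differ in depth and in the Cell Ranger version of their headers, so that experiment and processing cannot be told apart.

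Klk10 was the least even of the 6. It was found in 20.7%, 19.4%, 16.8% and 28.9% of the infundibulum cells, at 441, 481, 240.4 and 330.4 CPM, and 5 cells held 32.8%, 29.1%, 52.6% and 36.5% of its UMIs. Gata6 was found in 78.6%, 80.3%, 75.0% and 59.8% of the cells. Cells with under 1% of their UMIs in Krt5, Krt14, Krt1 and Krt10 are here called non-keratinocytes. Of the infundibulum cells only 55.9%, 49.3%, 49.5% and 62.5% reached that 1%, and the others were not taken out. The 2 groups that follow can thus hold keratinocytes, chosen cells among them. Non-keratinocytes with fibroblast markers held a Klk10 UMI in 1.59%, 0.963%, 0.806% and 0.856% and a Gata6 UMI in 3.81%, 4.70%, 2.06% and 2.20% of cells, at median depths of 10434, 9490, 4370 and 4258 UMIs. Non-keratinocytes with immune markers held a Klk10 UMI in 0.835%, 0.797%, 0.583% and 0.469% and a Gata6 UMI in 0.752%, 0.911%, 1.17% and 1.59%, at median depths of 8410, 8213, 4296 and 4205. Gata6 was found more often in the fibroblast-marker than in the immune-marker cells of each library. The higher shares in infundibulum cells follow from the selection.

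**Figure D1:**
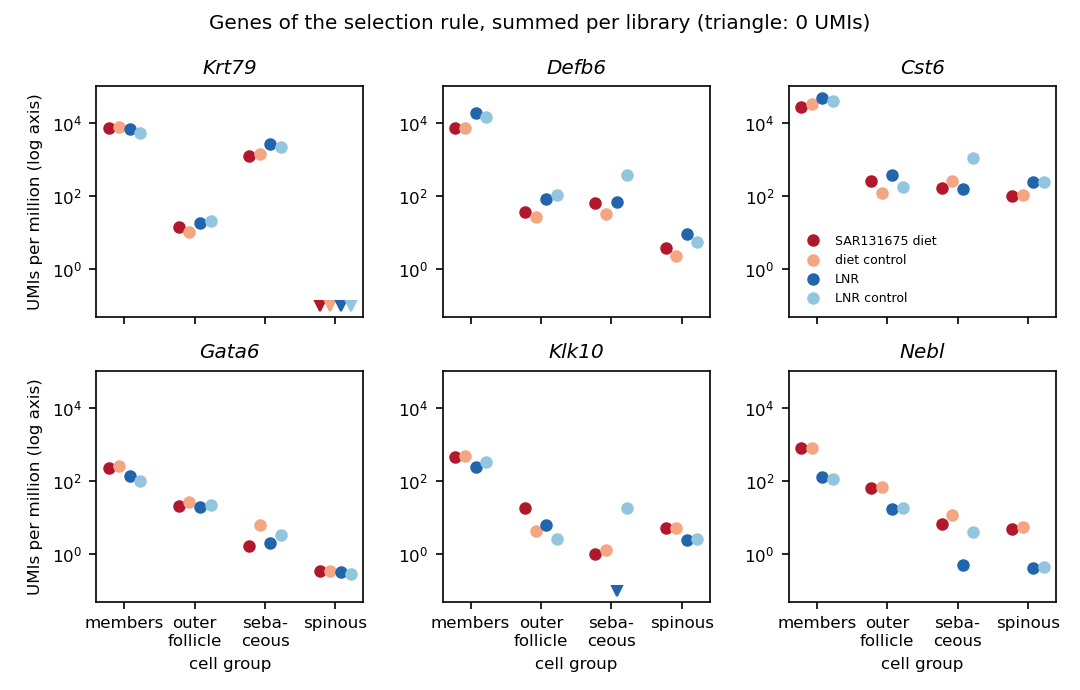
Levels of the 6 selection genes (y axis, CPM, log axis) in infundibulum cells (members) and in spinous, outer follicle and sebaceous cells, with 1 point per library and triangles for 0 UMIs. The infundibulum cells were chosen by these genes, and Krt79 in sebaceous cells lay between 1243 and 2575.

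The values at the edge of the selection were as follows. With exactly 4 of the 6 genes, Krt79 was at 3302, 3530.0, 5484 and 3888 CPM in 215, 168, 178 and 352 cells. With exactly 3 genes, just outside, it was at 2079.6, 2782, 3948 and 2288 in 143, 94, 127 and 212 cells. Klk10 in cells with 2 UMIs of Krt79 and at least 4 of the genes, also outside, was at 495, 1028, 14 and 12.2 CPM in 47, 21, 8 and 15 cells, in the diet libraries above its level in the chosen cells. The limit on sebaceous genes left out 6, 4, 5 and 91 cells, which were counted among the 306, 289, 319 and 501 sebaceous cells used for comparison.

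Krt79, Defb6 and Cst6 varied together among the cells. Within each library, Pearson correlations of log-normalised levels across the 404 to 849 cells were 0.58 to 0.75 for Krt79 with Defb6, 0.51 to 0.63 for Krt79 with Cst6 and 0.55 to 0.61 for Defb6 with Cst6. Klk10 correlated with Cst6 at 0.36 to 0.46 and with Krt79 at -0.13 to 0.04. The cells share a library and were chosen by these genes, so that the values are descriptions.

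The cells spanned basal and differentiated keratin profiles. The share of the suprabasal keratins Krt1 and Krt10 in the sum of these and the basal keratins Krt5 and Krt14 had medians of 57.6%, 58.5%, 23.6% and 50%, and of 27.4% in LNR control without mixed cells. The 10th and 90th percentiles in SAR131675 diet were 4.04% and 99.0%. Cells without mixed classes were sorted by this share into tertiles in each library, as a description without a test.

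Krt15, Lrig1 and Mki67 were higher in the low than in the high tertile, in an order that was itself set by basal keratins. Krt15, a keratin of basal and follicle stem cells, was at 1242, 1309, 1539 and 1544 CPM in the low tertile and at 132, 64.3, 328 and 281 in the high tertile. Lrig1, which marks stem cells of the junctional zone, was at 426, 416, 88.1 and 99.4 and at 168, 149, 66.1 and 61.7. The proliferation gene Mki67 was at 56.8, 69.4, 83.6 and 33.9 in the low and 6.61, 6.92, 15.2 and 8.44 in the high tertile. Each of the 3 was lower in the high than in the low tertile in every library, and Mki67 in LNR control was at 53.1 in the middle tertile. Sox9, a transcription factor of the follicle, moved less, from 557 to 775 in the low to 458 to 523 in the high tertile.

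Defb6 was highest in the middle tertile in all 4 libraries. It was at 6092, 9790.3 and 6009 CPM in the low, middle and high tertile of SAR131675 diet, 6379, 9851 and 5302 in diet control, 11645, 26884 and 18840.3 in LNR and 16811, 25229.9 and 16718 in LNR control. Krt17, a keratin of the follicle and of wounded epidermis, went from 3526 to 7710.3 in SAR131675 diet, from 4381 to 9759 in diet control, from 2099 to 11181 in LNR and from 3889 to 11487 in LNR control between the low and high tertile. Klk7, a protease that cuts corneodesmosomes, went from 638 to 2817 in SAR131675 diet, from 628 to 2439 in diet control, from 104 to 1058 in LNR and from 258 to 1200.2 in LNR control. Both genes were thus highest where differentiation keratins were. Spink5, which encodes an inhibitor of such proteases, went from 472 to 3158 in SAR131675 diet, from 799 to 3106 in diet control, from 127 to 1485 in LNR and from 326 to 1764 in LNR control. Lor, which encodes the envelope protein loricrin, was at 39.6, 55.3, 10.9 and 10.00 in the low and 1743, 1286, 697 and 393 in the high tertile.

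**Figure D2:**
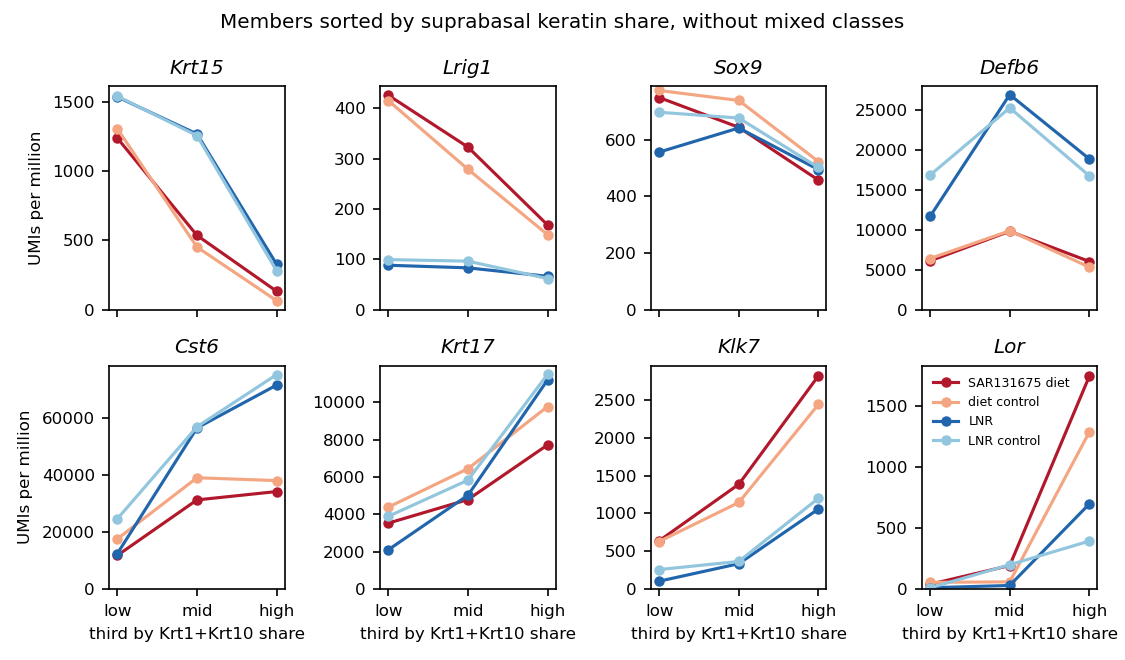
Levels of 8 genes (y axis, CPM) in the low, middle and high tertile (x axis) of infundibulum cells sorted by suprabasal keratin share, with 1 line per library and mixed cells left out. Krt15 was lower and Krt17, Klk7 and Lor higher in the high than in the low tertile of every library, and Defb6 was highest in the middle one.

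The cells were then compared with 3 other groups of the same libraries. UMIs were summed per library and group, and the 8 sums of a comparison were fitted with the library as a block, without the genes that defined the groups. Since the groups were defined by gene levels of the same cells, a test shows whether a difference recurs over the 4 libraries and not whether the cells are a separate type. Leaving out the defining genes does not remove this for genes that vary with them. In brackets after a pair of levels stand the log2 fold change and its standard error (SE). The SE was calculated as the absolute log2 fold change over the square root of the F value of the edgeR test. For genes almost absent from a group it is only approximate. A gene was called at an adjusted p below 0.05 and a difference of at least 2-fold.

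Against cells with Krt1 and Krt10, here called spinous cells, the infundibulum cells held more of 8 of 13 tested upper follicle and junctional zone genes and of 5 of 14 kallikreins and inhibitors, and less of all 10 division genes. The 14932 spinous cells held at least 3 UMIs each of Krt1 and Krt10 and no Krt79. Basal keratins were also present in them, with medians of 24, 14, 22 and 17 UMIs of Krt5 and 39, 27, 36 and 26 of Krt14 a cell beside 13, 18, 18 and 19 of Krt1 and 26, 45, 48 and 54 of Krt10. Of 14390 genes tested, 1211 (8.42%) were higher and 930 (6.46%) lower in the infundibulum cells by edgeR, or 1265 and 1140 without mixed cells. Krt17 was at 5439, 7013, 6053 and 5342 CPM against 72.2, 26.3, 72.7 and 63.8 (log2 fold change 6.83, SE 0.44, edgeR adjusted p = 0.00033). The groups did not overlap. Klk6, a kallikrein, was at 94.8, 107, 39.8 and 25.4 against at most 0.243 (8.63, SE 0.23). Krt77, a keratin known from sweat ducts, was at 109 to 140.1 against 0.571 to 1.64 (6.99, SE 0.28), and Sprr1a, an envelope precursor, at 1258 to 3274 against 14 to 29.4 (6.74, SE 0.24). The transcription factor gene Foxc1 was at 159 to 335 against 2.97 to 5.90 (5.87, SE 0.39). Calhm5, Rptn, Clca3a2 and Gdpd1 were also among the 10 largest increases, and each of these genes was higher in 4 of 4 libraries.

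Among 13 tested genes of the upper follicle and junctional zone, 8 were higher and 1 was lower than in spinous cells, with a median log2 fold change of 3.59 beside -0.05 over all genes tested. Plet1, a surface protein of the upper follicle, was at 393, 423, 288 and 239.8 CPM against 23.6, 23.3, 13.4 and 11.2 (log2 fold change 4.35, SE 0.07, edgeR adjusted p = 1.2e-06). Sox9 was at 498 to 671 against 32.2 to 44.4 (3.92, SE 0.20), and Lrig1 at 299, 281, 78.5 and 64.9 against 28.4, 23.3, 5.90 and 6.68 (3.59, SE 0.10). Each was higher in every library. The lower gene was Il1r2, a decoy receptor of interleukin-1, at 6.99 to 15.5 against 48.0 to 102 (-2.71, SE 0.37).

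Surface and defence genes were partly higher. Of 14 tested kallikreins and inhibitors 5 were higher and none lower, Klk7 at 1699, 1454, 515 and 468 CPM against 57.7, 74.4, 47.4 and 38.2 (log2 fold change 4.15, SE 0.34, edgeR adjusted p = 0.00059). Of 12 differentiation genes of the epidermis Cdsn, Ivl, Tgm1 and Sbsn were higher and Tgm3 was lower, and Cdsn, a corneodesmosome protein, was at 224, 342, 249 and 269 against 17.8, 27.0, 15.2 and 13.4 (3.99, SE 0.10). Of 5 wound keratins 4 were higher, Krt6a among them (3.44, SE 0.22). Of 12 antimicrobial genes 4 were higher, and the beta-defensin Defb1 was at 381, 375, 399 and 288 against 49.7, 44.4, 42.1 and 33.8 (3.17, SE 0.06). Of 20 immune signals 6 were higher, among them Ccl20, Il7 and Il18, and Il34 and Tslp were lower. Il34, a growth factor of macrophages and Langerhans cells, was at 33.6, 28.4, 7.29 and 17.4 against 126, 158, 45.9 and 50.6 (-2.0, SE 0.18).

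Basal and division genes were lower than in the spinous cells, which themselves held Krt5 and Krt14. Of 10 basal genes 6 were lower and none higher, and Krt5 was at 776, 774, 1584 and 1510 CPM against 2695, 2811, 2649 and 2496 (log2 fold change -1.20, SE 0.20, edgeR adjusted p = 0.0061). Without the SAR131675 diet library the calls of Krt5 and of the hemidesmosome collagen Col17a1 were lost (edgeR adjusted p = 0.058 for each). All 10 division genes were lower, with a median log2 fold change of -2.01, and Mki67 was at 25.9, 36.4, 46.4 and 54.8 against 184, 183, 139.9 and 159.9 (-1.99, SE 0.20). UMIs of at least 2 of these 10 genes were found in 14.8%, 11.4%, 20.3% and 32.5% of infundibulum cells and in 36.7%, 31.3%, 36.4% and 36.5% of spinous cells. Sox6, Tgm3, Slc24a3, Mt4 and Igfbp2 were the other large decreases. The metallothionein Mt4 was at 277, 209.5, 276 and 1659 against 2361, 2619, 4580 and 4883 (-3.01, SE 0.45), highest among infundibulum cells in LNR control, where 23.7% of them were mixed.

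Against outer follicle cells, the infundibulum cells were higher in differentiation genes and lower in basal genes. The outer follicle cells had to hold at least 3 UMIs of the basal keratin Krt5. The direction for other basal genes was thus largely set by the selection. Among the infundibulum cells Lor, Klk7 and Spink5 were higher in the high than in the low tertile of suprabasal keratin share. The counts of differentiation, barrier lipid, kallikrein and adhesion genes can therefore follow from this selection too. The 6560 outer follicle cells held Sostdc1, Lrig1 and Krt5, and 50 to 676 of them in each library also met the definition of spinous cells. Of 13229 genes tested, 1205 (9.11%) were higher and 1503 (11.4%) lower by edgeR, or 1225 and 1620 without mixed cells. Of 14 differentiation genes 13 were higher and Tgm3 was lower, with a median log2 fold change of 3.07 beside -0.03 over all genes. Flg, which encodes filaggrin, was at 643, 569.5, 170 and 172 CPM against 89.2, 50, 3.78 and 7.39 (log2 fold change 4.04, SE 0.39, edgeR adjusted p = 0.0007). Of 15 genes of barrier lipids 13 were higher, and Elovl4, an elongase of very long fatty acids, was at 607, 578, 232 and 284 against 45.9, 39.4, 43.1 and 47.6 (3.46, SE 0.34). Of 14 kallikreins and inhibitors 13 were higher, and Klk7 in the outer follicle cells was at 36.4, 14.6, 2.40 and 16.7 (6.25, SE 0.48). Of 15 adhesion genes 9 were higher, among them the tight junction gene Cldn4 (5.96, SE 0.21) and the desmosomal cadherin gene Dsc1 (4.35, SE 0.30).

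Of 12 upper follicle genes 4 were higher and 1 was lower than in outer follicle cells. Krt17 in those cells was at 1076, 761, 1371 and 953 CPM (log2 fold change 2.80, SE 0.20, edgeR adjusted p = 0.00028), and Plet1 (2.91, SE 0.12) and Atp6v1c2 (4.4, SE 0.25) were also higher. Krt77 had the largest named increase, at 109 to 140.1 against 0.172 to 0.381 (8.90, SE 0.17), followed by Sprr1a, Klk6, Slc46a2, Gsdma and Cdsn. Lgr5, a receptor of follicle stem cells, was lower, at 8.98, 4.86, 4.79 and 5.34 against 232, 233, 52.5 and 60.0 (log2 fold change -4.23, SE 0.34, edgeR adjusted p = 0.00039). Ccer2 (-6.86, SE 0.41), Tnc (-3.88, SE 0.67), Enox1 (-3.67, SE 0.19), the Wnt antagonist gene Sfrp1 (-3.11, SE 0.34) and the matrix gene Npnt (-3.05, SE 0.36) were lower too. Without a filter on low counts the calls of Tnc (edgeR adjusted p = 0.059) and Krt15 (edgeR adjusted p = 0.0504) were lost.

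Of 9 basal genes 7 were lower and none higher than in outer follicle cells. Krt15 was at 634, 589, 1076 and 972 CPM against 3122, 2962, 2395 and 2322 (log2 fold change -1.5, SE 0.23, edgeR adjusted p = 0.0034). All 10 division genes were lower, Mki67 among them (-2.27, SE 0.25). Of 20 immune signals 8 were higher, mostly of the interleukin-1 family. The 2 lower ones were Cxcl14 and Il33, and Il33 is also of that family. The chemokine Cxcl14 was at 71.9, 61.5, 112 and 137 against 780.5, 652, 541 and 442 (-2.45, SE 0.33), with no overlap.

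Against sebaceous cells, which share Krt79 with the infundibulum, the cells held less of 11 of 13 sebaceous and duct genes and more of 11 of 14 interfollicular differentiation genes. Sebaceous cells were defined by at least 4 of 6 sebaceous genes and infundibulum cells by fewer than 4. The direction for other sebaceous genes was thus largely set by the selection. Of the 501 sebaceous cells of LNR control, 91 otherwise met the rule for infundibulum cells. Of 12577 genes tested over 1415 sebaceous cells, 1723 (13.7%) were higher and 1565 (12.4%) lower by edgeR, or 1839 and 1692 without mixed cells. Of 13 sebaceous and duct genes 11 were lower and none higher, with a median log2 fold change of -4.68 beside 0.05 over all genes. Scd1, a fatty acid desaturase, was at 68.3, 58.8, 60.1 and 155 CPM against 7341, 9086, 12820 and 10720 (log2 fold change -6.97, SE 0.34, edgeR adjusted p = 0.00012). Pparg, a nuclear receptor of lipid-storing cells, was at 12.1, 12.1, 2.08 and 5.72 against 634, 679, 133 and 109 (-5.41, SE 0.33). The largest decreases were in Cartpt (-8.50, SE 0.18), Snap91 (-8.48, SE 0.39), Panx3 (-8.32, SE 0.52), Cyp3a57 (-8.27, SE 0.24), Aadacl3 (-8.26, SE 0.50) and Gm7298 (-7.77, SE 0.55). Of 15 barrier lipid genes 7 were higher and 4 lower, and Elovl4 in sebaceous cells was at 5141, 4521, 7879 and 6295 (-3.90, SE 0.47).

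Of 13 upper follicle genes 11 were higher than in sebaceous cells and none lower. They included Krt17 (6.93, SE 0.79), Sox9 (1.48, SE 0.15) and Lrig1 (2.24, SE 0.22). Of 14 differentiation genes 11 were higher, and of 15 adhesion genes 12. Desmoplakin, encoded by Dsp, was at 3782, 4929, 1967 and 1927 CPM against 619, 632, 331 and 574 (log2 fold change 2.47, SE 0.22, edgeR adjusted p = 0.0006). Of 10 basal genes 6 were higher, and Krt15 in sebaceous cells was at 155, 99.8, 73.2 and 229 (2.62, SE 0.31). Defb1 was at 381, 375, 399 and 288 against 5.22, 5.53, 3.73 and 17.5 (5.64, SE 0.51). Krt23, Adgrl3, Pinlyp, Rptn and 2310046K23Rik were among the 10 largest increases. Of the 10 division genes 1, Tyms, was lower and the others did not pass.

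**Figure D3:**
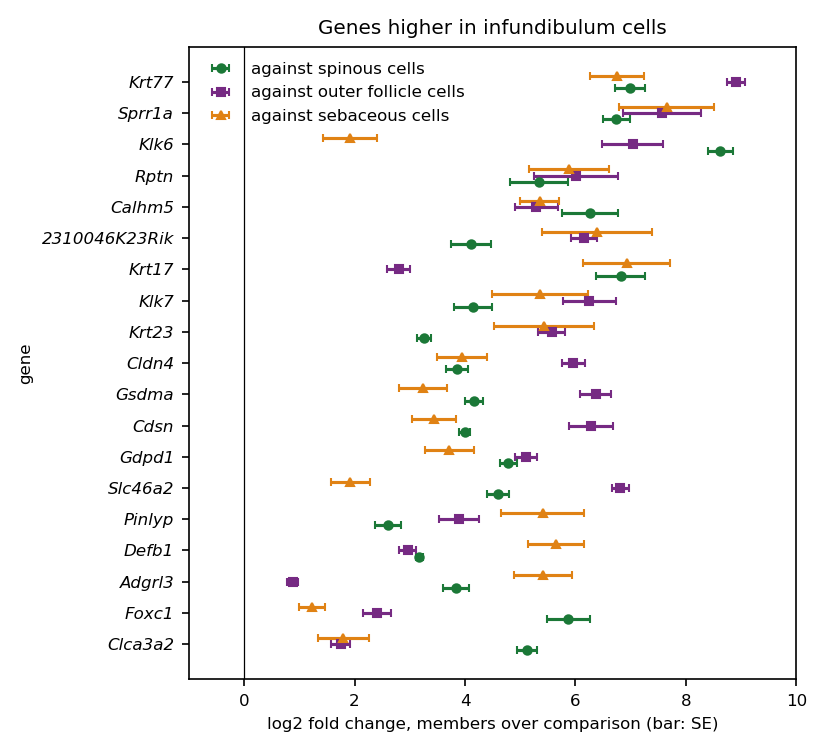
Log2 fold change with its SE (x axis) of genes with large increases in at least 1 comparison (y axis), for infundibulum cells against spinous, outer follicle and sebaceous cells. Krt77 and Sprr1a lay above 6 and Rptn above 5 in all 3 comparisons.

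Of 12290 genes tested in all 3 comparisons, 415 (3.38%) were higher and 75 (0.61%) lower in the infundibulum cells in each comparison and library, and 186 of the higher genes averaged at least 50 CPM. Without mixed cells 439 of 11682 were higher, 401 of them among the 415, and 95 lower, 66 of them among the 75. Ordered by their smallest log2 fold change, the 186 were led by Krt77 (6.75), Sprr1a (6.74), Rptn (5.35) and Calhm5 (5.29). Klk7 (4.15) and Atp6v1c2 (4.13) followed. Ivl, Cdsn, Defb1, Plet1 and Krt17 were also among the 186. Klk7 and Sprr1a were higher in both diet libraries than in both libraries of the LNR pair, while Krt77, at 114, 140.1, 126 and 109, overlapped between the pairs.

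The counts of the other gene lists stand beside 8.42%, 9.11% and 13.7% of all tested genes called higher, and 6.46%, 11.4% and 12.4% called lower, against spinous, outer follicle and sebaceous cells, and no difference between comparisons was tested. Retinoid and xenobiotic genes, which handle vitamin A and foreign compounds, were 7 higher and 1 lower of 15 tested against spinous cells (median log2 fold change 0.90), 8 higher and 0 lower of 15 tested against outer follicle cells (median log2 fold change 1.13) and 7 higher and 5 lower of 15 tested against sebaceous cells (median log2 fold change 1.39). Crabp2, a carrier of retinoic acid, was at 412, 474, 356 and 297 CPM against 81.5, 89.1, 87.1 and 78.6 in spinous cells (2.26, SE 0.14), and Ahr, the receptor of many foreign compounds, at 182, 210.5, 109 and 92 against 42.1, 42.9, 25.6 and 27.8 (2.15, SE 0.13). Transcription factors were 7 higher and 2 lower of 18 tested against spinous cells (median log2 fold change 0.56), 5 higher and 1 lower of 18 tested against outer follicle cells (median log2 fold change 0.58) and 10 higher and 1 lower of 18 tested against sebaceous cells (median log2 fold change 1.19). Prdm1, a repressor known in sebaceous and cornifying cells, was at 51.8, 54.0, 20.2 and 20.9 against 5.92, 6.69, 1.82 and 2.53 in spinous cells (3.24, SE 0.10). Cystatins, cathepsins and transglutaminases were 6 higher and 3 lower of 12 tested against spinous cells (median log2 fold change 0.70), 4 higher and 1 lower of 12 tested against outer follicle cells (median log2 fold change 0.80) and 7 higher and 1 lower of 12 tested against sebaceous cells (median log2 fold change 1.53). Tgm3 was lower in the first 2 of these comparisons, while Tgm1 was higher in all 3.

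Small envelope proteins were 2 higher and 0 lower of 12 tested against spinous cells (median log2 fold change -0.86), 3 higher and 0 lower of 9 tested against outer follicle cells (median log2 fold change 1.09) and 3 higher and 0 lower of 9 tested against sebaceous cells (median log2 fold change 1.60), and the higher ones were Sprr genes. Genes of lymphatic, bone and macrophage signalling were 0 higher and 1 lower of 10 tested against spinous cells (median log2 fold change 0.19), 0 higher and 1 lower of 7 tested against outer follicle cells (median log2 fold change -0.32) and 4 higher and 2 lower of 7 tested against sebaceous cells (median log2 fold change 1.52), and Il34 was lower than in spinous and higher than in sebaceous cells. Immediate early genes, which respond to dissociation as well as to signals, were 2 higher and 0 lower of 10 tested against spinous cells (median log2 fold change 0.79), 0 higher and 0 lower of 10 tested against outer follicle cells (median log2 fold change 0.08) and 4 higher and 0 lower of 10 tested against sebaceous cells (median log2 fold change 0.81). Antimicrobial genes were 1 higher and 0 lower of 10 against outer follicle and 4 higher and 0 lower of 9 against sebaceous cells. Wound keratins were 3 higher and 0 lower of 5 and 4 higher and 0 lower of 5 in these comparisons, and immune signals 11 higher and 0 lower of 17 against sebaceous cells. Sebaceous and duct genes were 3 higher and 0 lower of 12 against spinous and 4 higher and 1 lower of 13 against outer follicle cells. Barrier lipid genes were 3 higher and 0 lower of 15 and adhesion genes 4 higher and 0 lower of 16 against spinous cells, and kallikreins and inhibitors 11 higher and 0 lower of 13 against sebaceous cells.

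Between conditions no test was possible with 1 library each, and exact 95% intervals cover counting error only. The infundibulum cells made up 2.92% (2.73 to 3.12) of kept cells in SAR131675 diet and 2.78% (2.58 to 3.00) in diet control, a log2 ratio of 0.07 (-0.08 to 0.22). They made up 2.04% (1.85 to 2.24) in LNR and 3.23% (2.99 to 3.48) in LNR control, a log2 ratio of -0.66 (-0.85 to -0.48). Without mixed cells the LNR and LNR control shares were 1.98% (1.79 to 2.19) and 2.46% (2.26 to 2.68), a log2 ratio of -0.31 (-0.51 to -0.12). With every cell thinned to 3000 UMIs the log2 ratio of the LNR pair was -0.32 (-0.57 to -0.07), against -0.64 (-0.82 to -0.46) for the same cells before thinning. The diet pair differed little over kept cells, but its log2 ratio was 0.40 (0.19 to 0.61) among kept keratinocytes, a setting that also left out members, since 475 of 849 and 330 of 669 met its keratinocyte call. A larger share of one cell type and a smaller share of others cannot be told apart.

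**Figure D4:**
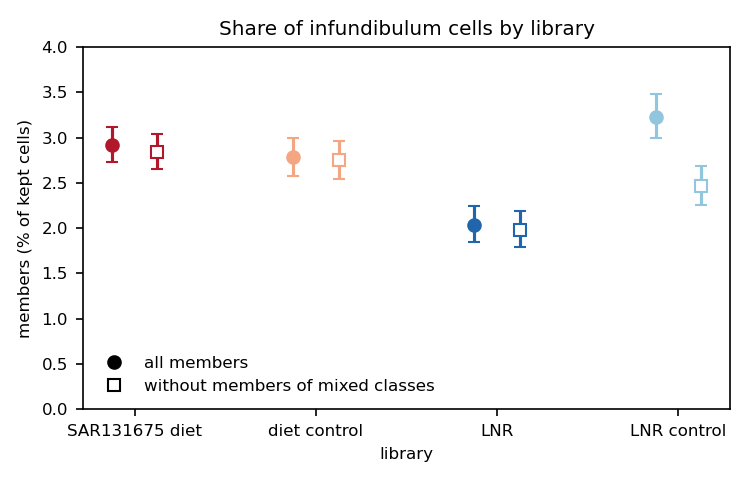
Infundibulum cells in percent of kept cells (y axis) in each library (x axis), for all chosen cells (filled) and without mixed cells (open), with exact 95% binomial intervals. LNR control stood at 3.23% with and 2.46% without mixed cells.

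The selection genes differed by less than 1.5-fold between conditions, except Klk10 in the LNR pair without mixed cells. For SAR131675 diet over diet control the log2 ratios were -0.11 for Krt79, 0.02 for Defb6, -0.28 for Cst6, -0.16 for Gata6, -0.13 for Klk10 and -0.08 for Nebl. For LNR over LNR control they were 0.31 for Krt79, 0.42 for Defb6, 0.29 for Cst6, 0.41 for Gata6 and 0.21 for Nebl. Without mixed cells these became -0.11, -0.03, -0.18, 0.01 and -0.16, so that the sign of 4 of the 5 turned. Klk10 was at a log2 ratio of -0.46 (-0.56 to -0.36) and, without mixed cells, -0.94 (-1.05 to -0.84), and 5 LNR cells held 52.6% of its UMIs. None of 15 upper follicle genes, which include the selection genes Krt79 and Gata6, and none of 10 basal genes passed 1.5-fold in either pair. Over all genes with at least 50 UMIs in a pair, 3.63% were higher and 3.06% lower with SAR131675 diet. With LNR the shares were 1.47% and 6.42%, and in lists this small a count of none is near such shares.

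Over genes with at least 50 UMIs in a pair, 411 of 11334 (3.63%) were more than 1.5-fold higher and 347 (3.06%) lower with SAR131675 diet, and 149 of 10156 (1.47%) higher and 652 (6.42%) lower with LNR. Without mixed cells the LNR counts were 273 and 201 of 9309 genes. With cells thinned to 3000 UMIs the diet counts were 206 higher and 307 lower, and without cells that held fibroblast, immune, endothelial, melanocyte or Schwann cell markers 312 and 328, so that the balance turned in both. Of 9826 genes in both pairs, 7 were higher and 40 lower past 1.5-fold in both, or 12 and 12 of 9160 without mixed cells. Over all fold sizes 4736 of the 9826 had the same sign in both pairs, and 4890 of the 9160.

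The largest decreases shared by the pairs were in Ccl21a, Lcn2, Fabp4, Krt6b and Serpinb6e. Signs depended on the cells kept. Without upper limits on genes and UMIs per cell the diet pair had log2 ratios of 1.10 for Fabp4 and 0.95 for Krt6b, and the LNR pair of 0.20 for Ccl21a and 0.20 for Serpinb6e. Without cells that held fibroblast, immune, endothelial, melanocyte or Schwann cell markers the diet pair had 0.62 for Ccl21a and 3.79 for Fabp4, and the LNR pair 0.37 for Serpinb6e. Ccl21a, a chemokine of lymphatic vessels and lymph nodes, was at 1.72, 18.0, 0.833 and 34.3 CPM, with 141 of 152 UMIs in 1 cell of diet control and 164 of 276 in 1 cell of LNR control. The wound keratin Krt6b was at 2.09, 22.9, 2.71 and 12.3, with 178 of 193 and 81 of 99 UMIs in 1 cell of each control library. Most UMIs of both genes in each control thus lay in 1 cell. Fabp4, a fatty acid carrier of adipocytes and endothelium, was at 2.99, 14.7, 19.6 and 89.1, with 455 of 717 LNR control UMIs in mixed cells. Lcn2, an antimicrobial protein that binds iron carriers, was at 0.816, 4.86, 2.29 and 12.4, with 73 of 100 LNR control UMIs in mixed cells. Serpinb6e was at 1.09, 9.01, 1.46 and 5.34, with 66 of 76 diet control UMIs in 1 cell. In LNR control Fabp4 was found in 131 cells, Lcn2 in 47 and Serpinb6e in 36, and 34 of 43 Serpinb6e UMIs lay in mixed cells. Without mixed cells the same rule gave Ccl21a, Krt6b, Aldh1a3, Fabp4 and Arg1, and in diet control 141 of 173 Aldh1a3 UMIs lay in 1 cell and 123 of 124 Fabp4 UMIs in 5 cells. The intervals of such ratios treat every UMI as independent and do not cover the spread between cells.

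The largest shared increases were smaller. Cpm, a membrane carboxypeptidase, was at 19.4, 7.58, 7.49 and 4.10 CPM, with log2 ratios of 1.36 (0.95 to 1.78) and 0.87 (0.15 to 1.60), the latter 0.92 (-0.07 to 1.96) without mixed cells. Without upper limits on genes and UMIs per cell its log2 ratio in the diet pair was -0.34, and 5 cells held 57.9%, 40.6%, 88.9% and 51.5% of its UMIs. Flg2, a relative of filaggrin, was at 106, 46.1, 20.0 and 12.1, with log2 ratios of 1.20 (1.03 to 1.37) and 0.73 (0.31 to 1.15), and 5 cells held 67.4%, 55.3%, 96.9% and 61.9% of its UMIs. Slit2, Tefm and Fam83d each had an interval that included 0 in 1 pair. Without mixed cells 4 of these 5 increases were replaced, and the rule gave Myoc, Itgbl1, Stfa3, Fn1 and Flg2, with log2 ratios of 2.20, 1.58, 1.52, 0.81 and 1.20 in the diet pair and 1.13, 1.08, 0.95, 1.37 and 0.79 in the LNR pair. Of the Myoc UMIs of SAR131675 diet 39 of 65 lay in 1 cell, and 5 cells of LNR held 71.0% of its Fn1 UMIs. Fn1 was at -0.34 in the diet pair without upper limits on genes and UMIs, and at -0.35 in the LNR pair without cells that held markers of the classes named above.

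Small envelope proteins were counted in each pair beside the shares over all genes, 3.63% higher and 3.06% lower with SAR131675 diet and 1.47% higher and 6.42% lower with LNR. Of 12 such genes with at least 50 UMIs in the diet pair 8 were more than 1.5-fold higher and 1 lower with SAR131675 diet, and of 7 in the LNR pair 6 were lower, or 1 of 2 without mixed cells. The 7 late cornified envelope (LCE) genes, whose products are cross-linked late in cornification, summed to 194, 28.9, 12.3 and 90.5 CPM. Of 2144 LCE UMIs in SAR131675 diet 1487 lay in 1 cell. Of 728 in LNR control 626 lay in mixed cells, and without those the level was 18.6. At least 5 LCE UMIs were found in 2.24%, 0.897%, 0.990% and 5.40% of the infundibulum cells, and 30 of the 36 such cells of LNR control were mixed. The spinous cells held 490, 494, 38.7 and 35.3 CPM of these genes.

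**Figure D5:**
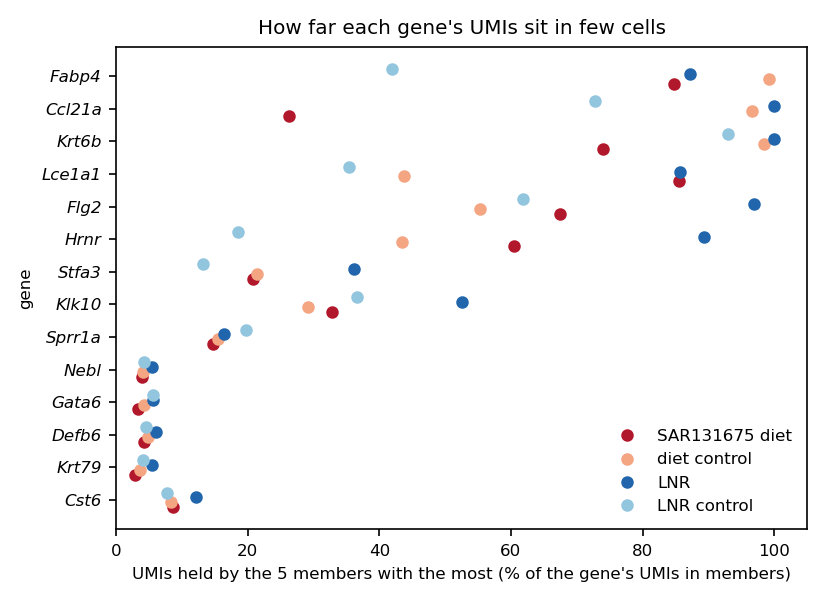
Percent of each gene's UMIs in infundibulum cells that lay in the 5 cells with the most (x axis), by gene (y axis) and library (points). Krt79 stood at 2.81% to 5.45% and Krt6b at 73.9% to 100%.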

How the data were processed

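Single-cell suspensions of pooled digits were sequenced on the 10x Genomics 3' platform. The matrices deposited by the authors hold unnormalised counts of UMIs over 33696 genes for each barcode, made with Cell Ranger 6.1.2 on GRCm39 per the labels, while the file headers name version 8.0.1 for the diet pair. Barcodes with 200 to 5500 genes, at most 30000 UMIs and at most 10% mitochondrial UMIs were kept. The study's integration and clustering were not repeated, and no doublet caller was run. Mixed cells were defined after seeing the data. The members, gene lists and comparison groups were chosen with earlier results of these data known.

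Comparison cells were spinous (Krt1 and Krt10 at least 3 UMIs each, Krt9 below 3, Krt79 at 0, at most 1 selection gene), outer follicle (Sostdc1, Lrig1, Krt5 at least 3 UMIs, Krt79 below 3) and sebaceous (at least 4 of 6 sebaceous genes). Sums per library were tested with the quasi-likelihood test of edgeR 4.0.16 (R 4.3.3) with TMM scaling, a library block and Benjamini-Hochberg adjustment. With the library as a block, the p-values rest on how far the difference between cell groups varied between the 4 libraries. They do not measure the spread of levels between libraries. Scripts were tested on simulated data. Named genes were the 10 largest increases and 6 largest decreases per comparison that were called in the same direction in all 4 libraries at 50 CPM or more, the 5 largest shared changes in each direction between conditions, and examples of 17 lists. Genes of near-identical families (Lce, Sprr2, Serpinb3, Stfa) are uncertain, since reads can fall to a copy. Conditions were compared as ratios with exact intervals, which cover counting error only. DESeq2 1.42.0 was an alternative. A gene that met the naming rule is not reported here.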

Additional observations from a re-analysis of the deposited data

Results flagged for a closer look

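The 10 genes given here were flagged for differing between the 2 pairs of libraries, with opposite signs, and the difference was not tested. Opposite signs alone were common, since only 4736 of the 9826 genes in both pairs had the same sign. The value given is the log2 ratio of SAR131675 diet over diet control minus that of LNR over LNR control in the infundibulum cells. For the envelope genes it was 5.9399 for Lce1a1, 5.7137 for Lce1b, 6.4739 for Lce1c, 5.7014 for Lce1d, 6.241 for Lce1m and 2.4223 for Hrnr. For the protease inhibitors it was 3.2983 for Serpinb3a and 3.086 for Slpi, for the chemokine Ccl2 3.2443 and for the glutathione transferase Gsta4 2.1836.

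The LCE counts lay in few cells. In SAR131675 diet a single cell held 372 of 608 UMIs of Lce1a1, 410 of 484 of Lce1c and 323 of 412 of Lce1d, and in LNR control mixed cells held 177 of 198, 67 of 82 and 86 of 102. Of the Slpi UMIs of LNR control 364 of 419 lay in mixed cells. Without mixed cells the log2 ratio of the LNR pair was 0.57 for Hrnr, -0.45 for Serpinb3a, -0.01 for Slpi, -0.17 for Ccl2 and -0.56 for Gsta4.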

How the results depend on the processing

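Each condition was 1 pooled library, and mixed cells were frequent among the infundibulum and sebaceous cells of LNR control. Shallow cells of the LNR pair can miss low genes, so that depth limits every comparison between experiments. No paired analysis was possible because the labels give 1 library per group, which holds for LNR and LNR control even where their pools share mice, and the library was a block in the cell comparisons. Of the counts and shares under alternatives, 106 stayed within 1.5 times the reported count or within the counting interval of the reported share ratio, where the SAR131675 pair ran from -0.0643 to 0.2148, and 18 did not, and of the single genes 1497 were the same, 90 moved, 12 lost their call and 23 reversed. The cause of these shifts was not tested, also where a setting removed cells or thinned them.

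Without the library block 503 genes were lower than in spinous and 914 lower than in outer follicle cells, and calls were lost for Sox6, Slc24a3, Mt4, Krt5, Pclaf and Ccl27a against spinous and Lrig1 against sebaceous cells. Leaving out 1 library gave 1019 to 1311 higher and 690 to 1168 lower genes against spinous, 1062 to 1395 and 1147 to 1859 against outer follicle, and 1337 to 1768 and 1425 to 1615 against sebaceous cells. With at least 5 selection genes the call of Krt1 against outer follicle cells was lost.

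The share log2 ratio of the SAR131675 pair was 0.3989 over keratinocytes and 0.3225 over thinned keratinocytes. That of the LNR pair was -0.419 with at least 5 selection genes, -0.3961 with fewer than 2 sebaceous genes, -0.3816 without cells with markers of other classes, -0.3131 without mixed members, -0.3402 without any mixed barcode, -0.3199 thinned and -0.3132 in thinned keratinocytes. Genes past 1.5-fold numbered 206 higher and 307 lower in the SAR131675 pair after thinning. In the LNR pair the lower genes numbered 363 with at least 5 selection genes, 145 without cells with other markers, 168 thinned and 201 without mixed cells, and the higher genes 273 without mixed cells and 233 as a mean over cells.

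Signs turned in the SAR131675 pair for Defb6 with at least 5 selection genes (-0.0028). Without upper limits on genes and UMIs they turned for Defb6 (-0.074), Cpm (-0.3386), Fabp4 (1.0965), Krt6b (0.9522) and Fn1 (-0.3362). Without cells with other markers they turned for Ccl21a (0.6236) and Fabp4 (3.7935), and after thinning for Gata6 (0.0327), Klk10 (0.0646) and Nebl (0.0355). In the LNR pair they turned without upper limits for Ccl21a (0.1954), Serpinb6e (0.1989) and Arg1 (0.043), without cells with other markers for Krt79 (-0.0257), Nebl (-0.0771), Serpinb6e (0.3712) and Fn1 (-0.3487), after thinning for Krt79 (-0.0377), and without mixed cells for Krt79 (-0.1146), Defb6 (-0.0296), Cst6 (-0.1758) and Nebl (-0.1573).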
